A study of Mus musculus with 14 samples.

Results

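Imprinted genes are expressed from the copy inherited from 1 parent. They lie in clusters in which an imprinting control region carries DNA methylation on 1 parental copy, set in the egg or the sperm, largely by the DNA methyltransferase Dnmt3a with its cofactor Dnmt3l, and kept after fertilisation by Dnmt1 with Zfp57 and Trim28. Within a cluster, genes of the maternal and of the paternal copy are often controlled in opposite directions, frequently through a long noncoding RNA. Several of the genes are most active in brain, and the human counterparts of the Snrpn, Ndn, Magel2 and Ube3a cluster are those of the Prader-Willi and Angelman syndromes. A list of 49 imprinted genes was matched by symbol to the deposited count table. Of these, 46 were among its 34193 symbols, and Snurf, Kcnq1ot1 and Peg13 were not matched. Reads were numerous enough to test 38 of the 46, among 13815 genes tested in all. The listed genes fall into 21 clusters or loci, and 19 of these had a tested member. By the parental copy from which each is known to be expressed, 20 of the tested genes were grouped as paternal, 7 as maternal and 11 as mixed, meaning that the imprint holds for some transcripts or tissues. The counts sum both parental copies, so no value below is allele-specific.

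Total RNA from the cortex of 14 C57BL/6J mice, 8 weeks old, was sequenced. Of these, 7 were heterozygous for a knockout of Dnmt3a and 7 were wild-type littermates, and each genotype held 4 females and 3 males. The labels do not say from which parent the knockout allele came, which tissue or stage lost the gene, or how the allele was made. The sample titles begin with a number, here the title prefix, that is shared by animals of both genotypes. There are 6 prefixes, each of 1 sex, and the labels do not say what the number marks. Prefixes 046, 047, 048 and 139 (set A, 8 animals, 4 of each genotype) and prefixes 119 and 141 (set B, 6 animals, 3 of each genotype) are treated as sets because earlier results of these data had shown them apart. Total counts were 8951835 to 14335406 per animal, and mitochondrial transcripts took 0.571% to 0.860% of counts in set A and 1.11% to 1.99% in set B. Markers of cortical excitatory neurons, among them Slc17a7 and Tbr1, were all tested (13 of 13) and summed to 6672 to 8180 CPM, which are counts scaled to the library total. The targeted gene followed the labels: Dnmt3a was at 146 ± 14.2 CPM in wild types and 99.0 ± 11.4 CPM in heterozygotes (SD, n = 7 each), a log2 difference of -0.57 (edgeR adjusted p = 0.00774). These are whole-gene counts, so transcripts of the knockout allele may be among them. The only other gene called between the genotypes, Gpnmb, is not an imprinted member.

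The 46 members together took 0.544% to 0.608% of all counts in an animal, with a median of 0.580%. Levels were set against each other as mean CPM per kilobase of exon, with exon lengths from GENCODE M21, a mouse annotation of the GRCm38 build, whereas the submitters' notes name mm9. On this scale Snrpn, a core protein of the spliceosome, was highest at 223, followed by Nap1l5, a retrogene related to nucleosome assembly proteins, at 139.9. Gnas, which encodes the stimulatory G protein alpha subunit, was at 70.6, and Trappc9, a subunit of a vesicle trafficking complex, at 65.7. Impact, an inhibitor of the kinase GCN2, was at 57.6, Ppp1r9a, the actin-binding neurabin, at 43.9 and Nnat, the membrane proteolipid neuronatin, at 37.5. Ndn, a MAGE family protein, was at 34.4 and the long noncoding RNA Meg3 at 32.6. The lowest of the tested members were Magel2, a MAGE family protein and neighbour of Ndn, at 0.378, the amino acid transporter Slc38a4 at 0.254 and the zinc finger gene Zim1 at 0.215. Members of 1 cluster differed widely: in the Prader-Willi/Angelman cluster the level ran from 0.378 for Magel2 to 223 for Snrpn, and the maternal Ube3a, an E3 ubiquitin ligase, lay between them at 7.80. Each length joins the exons of all annotated transcripts, 4631 bases for Magel2, 2159 for Snrpn and 20626 for Ube3a. Before scaling by length, their means were 1.75, 482 and 161 CPM, so the order and spacing of members depend on these lengths.

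The 8 members that were not tested were at or near the limit of detection. Phlda2, a placental growth regulator, had no read in any animal, and 3 reads, the limit set for a count of 0, correspond to 0.209 to 0.340 CPM in a library of these depths. H19, the maternal noncoding RNA of the Igf2 locus, had 9 reads over all animals and none in 9 of the 14. Calcr, the calcitonin receptor, had 3 reads in all. Asb4, Airn, Peg12, Rtl1 and Nespas had 57, 52, 40, 38 and 29 reads in all. Asb4 and Airn had a read in every animal, and no test of genotype was made for any of these 8 genes.

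**Figure D1:**
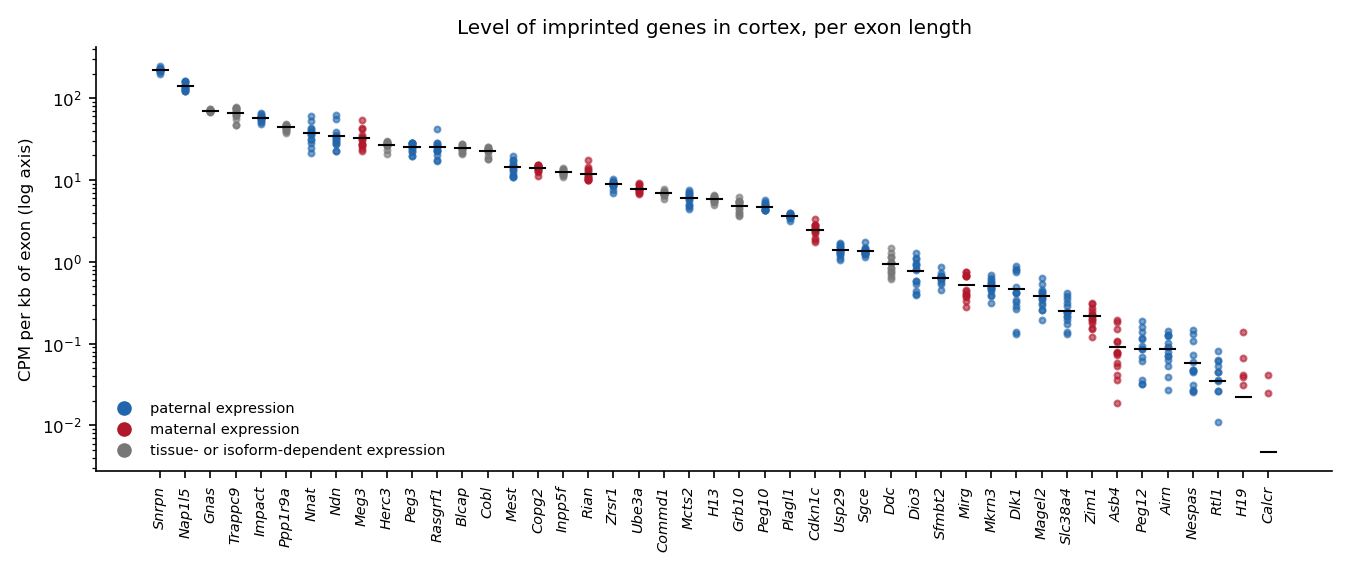
Mean level of each member in CPM per kilobase of exon on a log axis, with 1 point per animal, a bar at the mean and colour by parental copy (animals at 0 and Phlda2, which has no read, cannot be drawn). Snrpn at 223 and Nap1l5 at 139.9 stand at the top, and the untested members such as H19 and Calcr at the bottom.

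The sequences upstream of 6 starts are shown as examples and do not cover all members called below. Peg3 and Usp29 share a start region and were both lower in set B. Ndn and Magel2 are neighbours with opposite values in heterozygotes. Mest, Meg3 and Nap1l5 are some of the members that differed between the title prefixes. The sequences are from RefSeq on GRCm38.p6, each 250 bases upstream of a start except for the 163 bases between the starts of Peg3 and Usp29. They are read 5′ to 3′ in the direction of the gene (for the shared region, of Usp29). Capitals mark the hexamer TGCCGC or its reverse complement GCGGCA, the sequence that Zfp57 is known to bind when it is methylated at imprinting control regions. The regions are chr7:6730420-6730582 on the plus strand for Peg3 and Usp29, chr7:62348027-62348276 on the plus strand for Ndn, chr7:62376729-62376978 on the plus strand for Magel2, chr12:109540746-109540995 on the plus strand for Meg3, chr6:30737800-30738049 on the plus strand for Mest and chr6:58907127-58907376 on the minus strand for Nap1l5.
Peg3-Usp29: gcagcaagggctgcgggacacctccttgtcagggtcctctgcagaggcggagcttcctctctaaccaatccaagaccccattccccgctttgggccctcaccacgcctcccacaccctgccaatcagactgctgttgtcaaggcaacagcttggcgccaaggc
Ndn: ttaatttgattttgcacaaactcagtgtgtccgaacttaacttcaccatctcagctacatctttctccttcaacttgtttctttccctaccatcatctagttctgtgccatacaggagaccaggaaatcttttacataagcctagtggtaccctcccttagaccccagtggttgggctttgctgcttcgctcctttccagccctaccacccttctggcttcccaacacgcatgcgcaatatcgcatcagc
Magel2: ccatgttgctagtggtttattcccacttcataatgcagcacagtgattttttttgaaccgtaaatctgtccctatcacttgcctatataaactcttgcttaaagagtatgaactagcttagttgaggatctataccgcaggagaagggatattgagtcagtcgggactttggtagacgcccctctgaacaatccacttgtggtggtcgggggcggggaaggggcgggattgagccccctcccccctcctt
Meg3: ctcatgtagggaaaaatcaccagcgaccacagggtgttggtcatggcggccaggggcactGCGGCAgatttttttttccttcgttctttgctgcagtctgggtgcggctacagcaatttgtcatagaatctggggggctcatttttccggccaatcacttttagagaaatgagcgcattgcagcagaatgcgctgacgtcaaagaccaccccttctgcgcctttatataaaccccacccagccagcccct
Mest: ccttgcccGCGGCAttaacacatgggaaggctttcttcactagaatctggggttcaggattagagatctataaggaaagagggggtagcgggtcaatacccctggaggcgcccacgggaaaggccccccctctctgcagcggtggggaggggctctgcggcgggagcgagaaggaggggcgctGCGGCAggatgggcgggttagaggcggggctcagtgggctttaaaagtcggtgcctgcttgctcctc
Nap1l5: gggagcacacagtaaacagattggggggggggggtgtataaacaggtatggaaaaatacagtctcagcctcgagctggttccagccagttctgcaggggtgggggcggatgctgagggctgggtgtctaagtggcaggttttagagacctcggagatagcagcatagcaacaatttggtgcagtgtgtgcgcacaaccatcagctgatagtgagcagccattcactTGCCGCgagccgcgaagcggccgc
The Mest sequence held 2 matches, those of Meg3 and Nap1l5 held 1 each, and those of Ndn, Magel2 and Peg3-Usp29 held none. A further annotated start of Meg3 and one of Mest, not shown, held no match, so the windows shown for these genes are those with matches. Rian, Grb10, Mirg, Cobl and Rasgrf1 also differed between the prefixes, and their upstream windows, not shown, held no match. Mest, Meg3 and Nap1l5 therefore do not stand for the members that differed between the prefixes. Searched on both strands over 250 upstream bases, the hexamer was in 9 of 59 promoters of members (15.3%, in 8 of 40 genes, as 2 overlapping Mest windows hold the same matches), in 1755 of 12536 promoters of tested genes (14%) and in 2850 of all 32851 promoters (8.68%). The share among members was therefore near that of the tested genes. By parental copy it was in 5 of 29 promoters of paternal members, in 4 of 12 of maternal members and in none of 18 of mixed members. A match describes these letters and not a bound site.

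The first comparison asked whether loss of 1 copy of Dnmt3a went with a different level of imprinted genes. No member was called between the genotypes (edgeR with sex as a term, adjusted p threshold 0.05), nor with DESeq2, and with edgeR 0.0145% of all tested genes were called. At an unadjusted p under 0.05, 4% of all tested genes passed, and among the members Magel2 and Nnat did. The heterozygous mean was higher for 22 and lower for 16 of the 38 members, with a median log2 difference of 0.02, while over all tested genes 50.9% were higher and the median was 0.0024. The ranges of the 2 genotypes overlapped for every tested member, and 0.123% of all tested genes had ranges that did not. In the authors' deposited table, whose test is separate, no member passed either, and the smallest adjusted p was 0.371, for Magel2, with 0.191% of its genes past 0.05.

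By parental copy, 12 of the 20 paternal members were higher in heterozygotes, with a median log2 difference of 0.02. Of the 7 maternal members 2 were higher, with a median of -0.08, and of the 11 mixed members 8 were higher, with a median of 0.06. None of these members was called. The 5 tested genes of the Dlk1-Dio3 cluster all had a lower mean in heterozygotes, from -0.56 for Dlk1 to -0.06 for Rian. That direction did not hold throughout: with set A fitted alone Meg3, Rian and Mirg were at 0.13, 0.08 and 0.05, and the heterozygous level was higher in 4 of the 6 prefixes for Meg3 and in 3 for Rian, Mirg and Dio3. In the fit of all animals 4 of the 5 tested genes of the Prader-Willi/Angelman cluster had a higher heterozygous mean. The maternal noncoding RNAs Meg3, Rian and Mirg lie on the same strand of 1 region in the first cluster, so they may not be separate observations. The neighbouring paternal gene Dlk1 is read from the other parental copy, and its mean was on the same side as theirs.

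**Figure D2:**
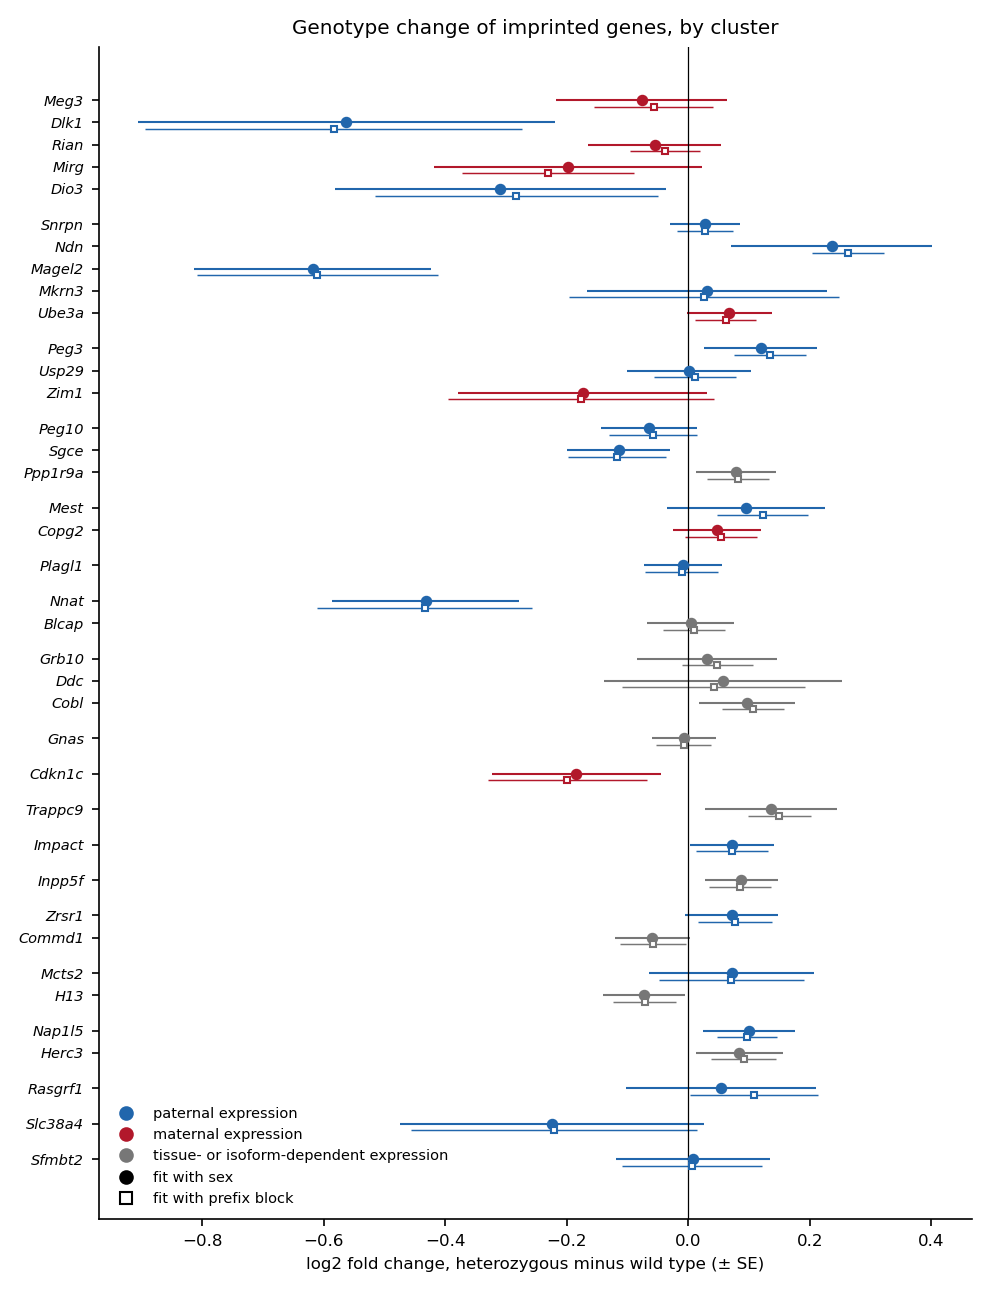
Log2 difference of heterozygous from wild-type animals for each tested member, ordered by cluster and coloured by parental copy, with bars of 1 SE. Filled circles are the edgeR fit with sex and open squares the fit with the prefix block. The points for Magel2 (-0.62), Dlk1 (-0.56) and Nnat (-0.43) lie farthest from 0, and the circle of no member passed an adjusted p of 0.05.

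Magel2, which is known for its part in the sorting of membrane proteins and in hypothalamic function, had the smallest p of all members. It was at 1.64, 2.00 and 2.96 CPM (lowest, median and highest of 7) in wild types and at 0.911, 1.36 and 1.86 CPM in heterozygotes. The mean of the heterozygotes was lower than that of the wild-type animals in all 6 title prefixes, a pattern that 2.07% of all tested genes showed downwards. The ranges overlapped, and the log2 difference was -0.62 (SE 0.195, edgeR adjusted p = 0.98). These levels rest on 11 to 34 reads in an animal.

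Nnat, a paternally expressed gene of neurons that modulates calcium handling in the endoplasmic reticulum, was at 58.8, 72.8 and 111 CPM in wild types and at 39.6, 55.9 and 78.5 CPM in heterozygotes. The 4 lowest animals were heterozygous and the highest 2 wild-type, and the ranges overlapped between them. The log2 difference was -0.43 (SE 0.154, edgeR adjusted p = 0.98). Within prefixes it was lower in heterozygotes by 0.88, 0.83, 0.53 and 0.19 log2 units in prefixes 047, 141, 048 and 046, and higher by 0.11 in prefix 139 and by 0.02 in prefix 119. Nnat lies inside an intron of Blcap on the opposite strand with no shared exon base, and Blcap had a log2 difference close to 0.

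Dlk1, a transmembrane relative of the Notch ligand Delta, was at 1.64, 2.78 and 4.65 CPM in wild types and at 0.745, 1.80 and 5.00 CPM in heterozygotes. The highest of all 14 animals was a heterozygote of prefix 048, so the ranges overlapped fully. The log2 difference was -0.56 (SE 0.343, edgeR adjusted p = 0.98). Without that heterozygote (replicate 1) it was -0.91, on 7 to 66 reads in an animal.

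Magel2, Nnat and Dlk1 are known to be strongly expressed in the hypothalamus and basal forebrain, which lie outside the dissected cortex. In bulk tissue fewer cells of a type and less RNA per cell cannot be told apart, here and for every level in these data. Of 23 markers of those regions, 12 were tested, 3 with a higher and 9 with a lower mean in heterozygotes, with a median log2 difference of -0.23 and none called over all animals. The summed level of the 23 markers was 257 to 358 CPM in wild types and 245 to 351 CPM in heterozygotes. The defining markers Hcrt, Pmch, Avp, Oxt, Agrp, Sim1 and Nkx2-1 were under the filter on low counts, and none of these was at 0 in every animal. Summed striatal markers ran from 666 to 1393 CPM in wild types and from 555 to 1465 CPM in heterozygotes. With each set fitted alone, 12 of 13 were lower in heterozygotes in set A and 5 of 13 in set B, and none was called. The part of tissue from outside the cortex in the values of Magel2, Nnat and Dlk1 was not tested.

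Inpp5f, an inositol phosphatase, was at 91.4, 99.5 and 109 CPM in wild types and at 95.1, 107 and 118 CPM in heterozygotes, a log2 difference of 0.09 (SE 0.0601, edgeR adjusted p = 0.98). Sgce, the epsilon-sarcoglycan of the Peg10 cluster, was at 13.6, 14.5 and 18.4 CPM and at 12.2, 13.3 and 15.7 CPM, a log2 difference of -0.12 (SE 0.0841, edgeR adjusted p = 0.98). Both pairs of ranges overlapped. Without wild-type replicate 4 the difference of Sgce was -0.07.

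Ndn, a MAGE family protein of postmitotic neurons, was the 1 member whose call depended on the prefix. It was at 84.3, 102 and 228 CPM in wild types and at 109.7, 126 and 203 CPM in heterozygotes, and in the fit with sex the log2 difference was 0.24 (SE 0.166, edgeR adjusted p = 0.98). This value was 0.43 without wild-type replicate 4 and 0.15 without heterozygous replicate 1, the 2 animals of prefix 048. Within a prefix the heterozygote was above its wild-type counterpart in 5 of the 6: 126 against 109 CPM in prefix 046, 132 against 102 in prefix 047, 141 against 116 in prefix 139, 125 against 102 in prefix 119 and a mean of 114 against 84.4 in prefix 141. In prefix 048 it was below, at 203 against 228 CPM, and these 2 animals were the highest of the 14. When the prefix replaced sex as a block, the log2 difference was 0.26 (SE 0.0591, edgeR adjusted p = 0.0487), and Ndn was the only member called, where 0.405% of all tested genes were. The call was lost on leaving out any 1 of 12 of the 14 animals, with log2 differences of 0.23 to 0.34 and adjusted p of 0.005 to 0.155 over all 14 removals, and only removal of either animal of prefix 048 kept it. Without both animals of prefix 048 it was 0.34 (edgeR adjusted p = 0.00491).

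**Figure D3:**
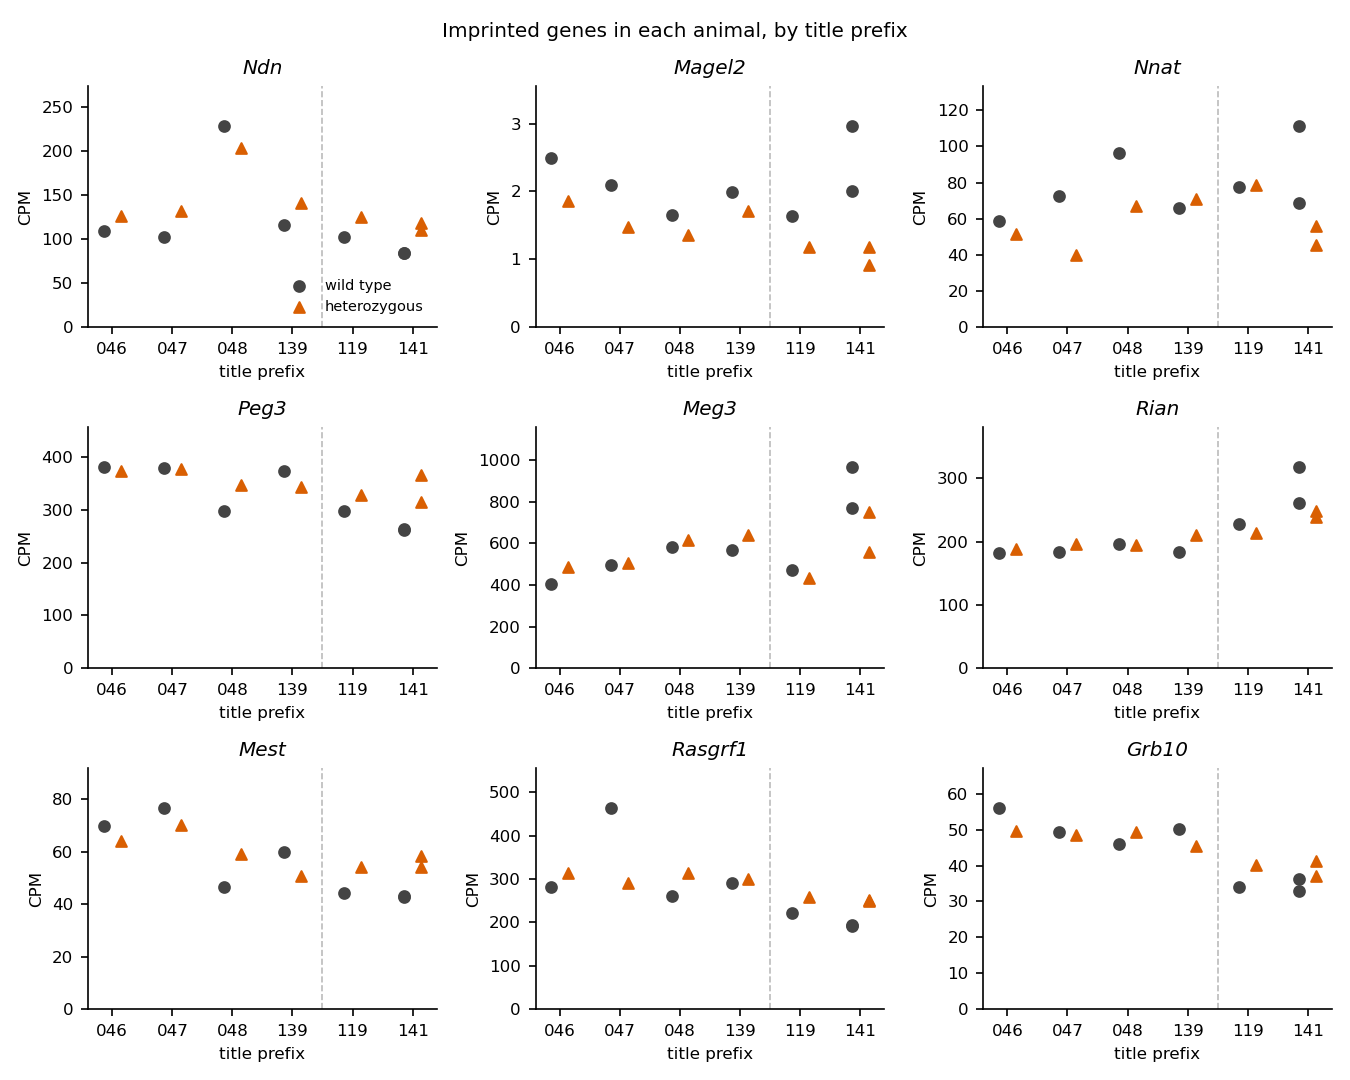
CPM of leading members in each animal, with the title prefix on the horizontal axis, genotype by colour and shape, and a dashed line between set A (left) and set B (right). In the panel for Ndn the 2 animals of prefix 048 stand at 228 and 203 CPM above all others, and in the panel for Magel2 the heterozygotes lie lower within every prefix.

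The leading members of the other clusters were close between genotypes. Snrpn was at 433, 476 and 507 CPM in wild types and at 450.4, 483 and 531 CPM in heterozygotes, a log2 difference of 0.03 (SE 0.0575). It shares 216 exon bases on the same strand with Snurf, so its counts can hold both reading frames. Ube3a was at 141, 159 and 165 CPM and at 139, 164 and 187 CPM, a log2 difference of 0.07 (SE 0.0698). Peg3, a zinc finger protein, was at 262, 298 and 381 CPM and at 315, 346 and 377 CPM, a log2 difference of 0.12 (SE 0.0929).

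Meg3 was at 407, 567 and 967 CPM in wild types and at 435, 559 and 752 CPM in heterozygotes, a log2 difference of -0.08 (SE 0.141) that turned to 0.04 without the wild-type animal at 967 CPM (replicate 6). Gnas was the steadiest member, with a coefficient of variation of 2.89% over all 14 animals and a ratio of 1.10 between the highest and the lowest. It was at 776, 790.2 and 826 CPM in wild types and at 752, 780.0 and 827 CPM in heterozygotes, a log2 difference of -0.01 (SE 0.0532), and it shares 988 exon bases with Nespas on the opposite strand. None of these 5 members was called (edgeR). The library kit was directional, but the sources used here do not say whether reads were counted by strand.

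Several members are retrogenes that lie in an intron of a host gene and are read from the paternal copy. Zrsr1, related to the splicing factor U2AF, had a log2 difference of 0.07 and its host Commd1, a regulator of copper and of protein turnover, one of -0.06. Mcts2 had one of 0.07 and its host H13 one of -0.07, while Nap1l5 and its host Herc3 had 0.10 and 0.08. Zrsr1 and Commd1 share 412 exon bases on opposite strands, and the other 2 pairs share none. None of these 6 genes was called (edgeR).

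Most of the remaining members were close to 0. In the Grb10 cluster Grb10, Ddc and Cobl were at 0.03, 0.06 and 0.10, and at the Mest locus Mest and Copg2 were at 0.10 and 0.05. Trappc9 was at 0.14, Ppp1r9a at 0.08, Impact at 0.07, Rasgrf1 at 0.05 and the Polycomb gene Sfmbt2 at 0.01. Plagl1, a zinc finger factor that restrains growth, was at -0.01, Peg10 at -0.07 and Usp29 at 0.0011. Members farther below 0 were Dio3, which inactivates thyroid hormone (-0.31), Slc38a4 (-0.23), Mirg (-0.20), the cell cycle inhibitor Cdkn1c (-0.18) and Zim1 (-0.17). The SE of these 5 ran from 0.139 for Cdkn1c to 0.273 for Dio3, and their mean counts were 12.9 to 60.3 reads in an animal. Mkrn3, a RING finger protein known for its part in the timing of puberty, was at 0.03 (SE 0.198) on a mean of 15.4 reads. In the authors' deposited table the shrunken log2 fold changes of members ran from -0.17 for Magel2 and -0.16 for Nnat to 0.12 for Trappc9.

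Members differed in how steady they were over all 14 animals, with both genotypes pooled. After Gnas, the lowest coefficients of variation were 4.94% for Snrpn, 6.03% for Plagl1 and 6.34% for Commd1. Among the tested members the highest were 54.1% for Dlk1, 37.0% for Dio3, 34.9% for Slc38a4, 32.5% for Mirg, 32.3% for Ndn and 31.2% for Magel2. Of these, Ndn had a mean count of 1513 reads and the others had 12.9 to 44.6. Among well-counted members Nnat and Meg3 followed Ndn, with 27.7% and 25.9% and ratios of 2.81 and 2.38 between the highest and the lowest animal. Rasgrf1 had 24.0%, with a ratio of 2.42, and its highest animal was a wild type at 463 CPM.

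Genes that set, keep or read imprints were described as a list with 29 tested genes. Of these, 20 had a higher and 9 a lower mean in heterozygotes, with a median log2 difference of 0.04, and Dnmt3a itself was the only one called. Atrx, a chromatin remodeller, was at 0.12, Smchd1, which silences the inactive X and some imprinted clusters, at 0.11 and Ehmt2, a histone methyltransferase, at -0.10. Of 29 other tested imprinted genes, not among the members, 15 had a higher and 14 a lower mean, the median was 0.0011 and none was called. Within it Begain, a neighbour of Dlk1, had a log2 difference of -0.22 and the extracellular matrix gene Dcn one of -0.32, while Casd1, a sialic acid acetyltransferase next to Sgce, was at 0.12 and the zinc finger gene Zfp64 at 0.18.

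The second comparison asked whether members differed between the title prefixes, with genotype held. Of the 38 members, 12 were called (31.6%), against 33.2% of all tested genes, so the share was near the background. They were Ndn, Trappc9, Rian, Grb10, Mirg, Mest, Meg3, Usp29, Nap1l5, Peg3, Cobl and Rasgrf1. Of the paternal members 6 of 20 were called, of the maternal 3 of 7 and of the mixed 3 of 11. Ndn had the smallest adjusted p of the members (edgeR, 5.92e-07), and its mean was 215 CPM in prefix 048 and 99.2 to 128 CPM in the other prefixes.

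The 3 noncoding RNAs of the Dlk1-Dio3 cluster were all called by prefix. Meg3 had a mean of 762 CPM in prefix 141 and 448 to 603 CPM in the others (edgeR adjusted p = 0.0098). That call was lost without heterozygous replicate 7 (edgeR adjusted p = 0.0808). Mirg, the host RNA of a cluster of microRNAs, was at 4.11 CPM in prefix 141, at 5.16 and 4.97 CPM in prefixes 139 and 048 and at 2.21 to 3.12 CPM in the other 3 (edgeR adjusted p = 0.00347). The order of the prefixes was therefore not the same for Meg3 and Mirg, although both were lowest in prefixes 046, 047 and 119. Cobl, an actin nucleator of the Grb10 cluster, was at 165 and 171 CPM in prefixes 141 and 048 and at 192 to 202 CPM in the others (edgeR adjusted p = 0.0211).

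The third comparison set prefixes 119 and 141 (set B) against the other 4 (set A), with sex and genotype as terms. Of the 38 members 12 were called, 4 higher and 8 lower in set B, which is 31.6% against 38.8% of all tested genes (19.1% higher and 19.6% lower). The median log2 difference of the members was -0.05, against -0.0013 over all tested genes. Because the sets were taken from earlier results of these data, these differences describe the libraries. The share of all tested genes whose ranges did not overlap between the sets was not counted. Where a member is said below not to overlap between the sets, that is description only.

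Lower in set B were Grb10, an adaptor of the insulin and IGF receptors, with 45.4, 49.4 and 56.0 CPM in set A (lowest, median and highest of 8) and 32.8, 36.7 and 41.2 CPM in set B (of 6), which did not overlap. Its log2 difference was -0.41 (SE 0.0623, edgeR adjusted p = 1.96e-05). Trappc9 was at 493, 589 and 618 CPM in set A and at 376, 460.2 and 522 CPM in set B, a log2 difference of -0.36 (edgeR adjusted p = 0.000121). Rasgrf1, a Ras exchange factor of neurons, was at 261, 295 and 463 CPM and at 192, 235 and 257 CPM, without overlap, a log2 difference of -0.48 (edgeR adjusted p = 0.0069).

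Mest, an alpha/beta hydrolase fold protein, was at 46.7, 61.9 and 76.5 CPM in set A and at 42.6, 49.2 and 58.3 CPM in set B, a log2 difference of -0.35. The pair that shares a start region was lower together: Peg3 was at 298, 373 and 381 CPM in set A and at 262, 306 and 366 CPM in set B, and Usp29, a ubiquitin-specific protease, was at 21.7, 27.5 and 30.7 CPM and at 19.1, 23.3 and 24.9 CPM. Their log2 differences were -0.24 and -0.22 (edgeR adjusted p = 0.00645 and 0.0395). Zim1 of the same cluster had one of 0.08 (SE 0.213) on a mean of 20.9 reads. That SE is too wide to set Zim1 apart from the pair. Blcap was at 73.6, 76.0 and 84.7 CPM in set A and at 62.8, 69.5 and 76.9 CPM in set B (log2 -0.16), and H13, the signal peptide peptidase, was the last of the 8, with -0.14.

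Higher in set B was Rian, a host RNA of small nucleolar RNAs, with 182, 191 and 210.1 CPM in set A and 213, 244 and 318 CPM in set B, which did not overlap. Its log2 difference was 0.36 (edgeR adjusted p = 0.000124), and that of its neighbour Meg3 was not called. Nap1l5 was at 228, 241 and 270.0 CPM and at 252, 289 and 299.6 CPM (log2 0.22, edgeR adjusted p = 0.00158). Ube3a was at 139, 152 and 164 CPM and at 159, 173 and 187 CPM (log2 0.17, edgeR adjusted p = 0.0114). Ddc, the decarboxylase that makes dopamine and serotonin, was at 2.71, 3.37 and 5.08 CPM and at 4.29, 4.76 and 6.65 CPM (log2 0.56, edgeR adjusted p = 0.00428).

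**Figure D4:**
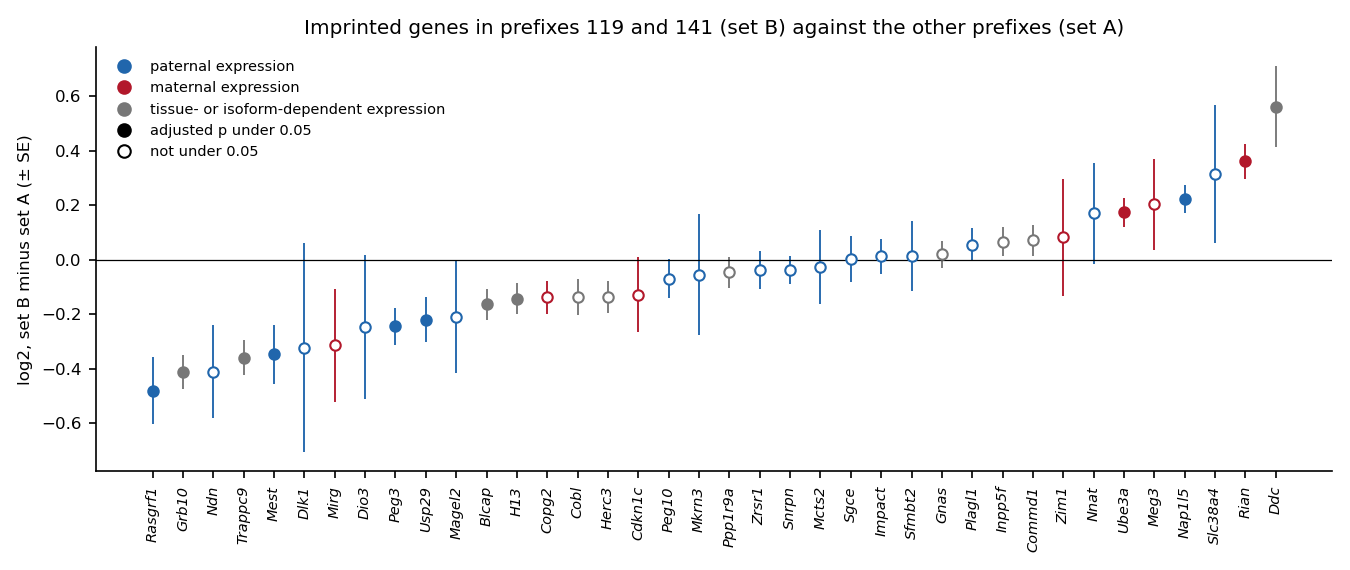
Log2 difference of set B from set A for each tested member, with bars of 1 SE, coloured by parental copy, with called members filled and the others open. The called members run from Rasgrf1 at -0.48 to Ddc at 0.56, with 8 below and 4 above 0.

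Astrocyte markers moved with the sets: 14 of 14 had a higher mean in set B and 13 were called (edgeR), with summed levels of 10219 to 11712 CPM in set A and 13493 to 19355 CPM in set B. Summed interneuron markers did not overlap between the sets either, at 995 to 1106 CPM in set A and 771 to 966 CPM in set B, with 4 of 12 called lower and 1 higher. Of 13 excitatory neuron markers 8 were called lower and 1 higher in set B. Their sum, in which abundant genes weigh most, was 6672 to 7079 CPM in set A and 6724 to 8180 CPM in set B. Of 14 oligodendrocyte markers 6 were called higher and 1 lower, with sums of 3953 to 5149 CPM and 4937 to 6666 CPM. The part of these cell types in the values of the members was not tested.

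The fourth comparison asked whether the genotype difference of the members was the same in both sets. No member was called for the interaction in edgeR, and no gene of the 13815 was (0%), although 2036 genes (14.7%) had an unadjusted p under 0.05. In the fit of all 14 animals the median genotype difference of the members was -0.03 in set A, with 16 of 38 higher in heterozygotes, and 0.14 in set B, with 23 of 38 higher. Over all tested genes the medians were 0.00083 and -0.0004. The paternal members had medians of -0.09 and 0.15 in sets A and B, the mixed ones 0.0037 and 0.18, and the maternal ones 0.01 and -0.20.

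The smallest p of the members for the interaction was that of Peg10, a retrotransposon-derived gene. It was lower in the heterozygote of each of the 4 prefixes of set A, at 30.6, 28.9, 29.3 and 28.7 CPM against 34.0, 38.0, 35.7 and 33.0 CPM in prefixes 046, 047, 048 and 139. In set B it was higher, at 34.5 against 28.3 CPM in prefix 119 and at a mean of 32.0 against 28.5 CPM in prefix 141. The genotypes did not overlap within either set, and the share of all tested genes with this pattern was not counted. The difference between the sets was 0.47 log2 units (edgeR adjusted p = 0.0743). Impact differed by 0.34 (edgeR adjusted p = 0.123), and Copg2, a subunit of the coat of Golgi vesicles, by 0.31 (edgeR adjusted p = 0.151). With DESeq2 on the same 13815 genes, 202 genes were called, Peg10 and Impact among them. With edgeR and no filter on low counts, every gene with a read was fitted, a set larger than the 13815. It held all of the 34193 symbols except the 14540 with no read in any animal, and 381 genes were called. Among them were Peg10, Impact, Mest (0.43, edgeR adjusted p = 0.0224), Rasgrf1 (0.41, edgeR adjusted p = 0.0142) and Meg3 (-0.45, edgeR adjusted p = 0.00443). With the filter, the edgeR adjusted p was 0.328 for Mest, 0.448 for Rasgrf1 and 0.522 for Meg3, so these calls depended on the filter.

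When the animals of each set were fitted alone, a choice made after seeing the data, no member was called in set A, nor was any other gene (0%, with 609 genes, or 4.4%, at an unadjusted p under 0.05). In set B 14 of the 38 members were called (36.8%), against 16.6% of all tested genes. Of these, 12 were higher in heterozygotes, against 8.88% of all tested genes, and 2 were lower, against 7.72%. Among paternal members 6 of 20 were called, among maternal 3 of 7 and among mixed 5 of 11. Of the 29 other tested imprinted genes, 7 were called in set B alone (24.1%), 4 higher and 3 lower, with a median log2 difference of 0.00024. A test of whether the share of the members is particular to imprinted genes was not made. Among the called members the ranges of Rian, Cobl and Trappc9 overlapped between the genotypes of set B. The share of all tested genes with separate ranges in 3 against 3 animals was not counted. Separate ranges of the other called members are therefore description only.

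Ndn in set B was at 84.3 to 102 CPM in 3 wild types and 109.7 to 125 CPM in 3 heterozygotes, a log2 difference of 0.39 (SE 0.0605, edgeR adjusted p = 6.02e-05). Rasgrf1 was at 192 to 222 CPM and 249 to 257 CPM (log2 0.32, edgeR adjusted p = 0.000179). Mest was at 42.6 to 44.2 CPM and 54.1 to 58.3 CPM (log2 0.36, edgeR adjusted p = 0.000564), and Copg2, which shares 912 exon bases with it on the opposite strand, rose by 0.24. Impact was at 247 to 296 CPM and 312 to 335 CPM, a log2 difference of 0.27 (edgeR adjusted p = 0.00114). The fit of all animals gave similar set B differences for Ndn, Rasgrf1 and Mest, at 0.39, 0.32 and 0.36. Their SE there was wider, at 0.265, 0.174 and 0.145, against 0.0605, 0.0560 and 0.0696 in set B alone. For Magel2 the SE was 0.306 against 0.313. In the fit of all animals 1 member was called for genotype within set B, so most of these calls depended on fitting set B alone.

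Peg3 was at 262 to 297 CPM and 315 to 366 CPM in set B (log2 0.30, edgeR adjusted p = 0.00141). Trappc9 and Herc3, a ubiquitin ligase that holds Nap1l5 in an intron, rose by 0.24 each, Cobl by 0.20, Inpp5f and Ppp1r9a by 0.19 and Ube3a by 0.18. The 2 that were lower were Magel2, at 1.64 to 2.96 CPM in wild types and 0.911 to 1.18 CPM in heterozygotes (log2 -0.98, edgeR adjusted p = 0.0295), and Rian, at 228 to 318 CPM and 213 to 249 CPM (log2 -0.19, edgeR adjusted p = 0.0398). Ndn and Magel2 thus fell on opposite sides in the same animals, although both are paternal and adjoin each other.

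The number of called members fell most on leaving out an animal of prefix 141, though not with each of its animals. It was 6 without wild-type replicate 6, 7 without heterozygous replicate 6 and 8 without heterozygous replicate 7, and Magel2 lost its call in each of these (edgeR adjusted p = 0.233, 0.0862 and 0.148). Without wild-type replicate 7, also of prefix 141, Magel2 kept its call. Over the 6 removals the count of called members ran from 6 to 15 and that of all genes from 1241 to 2403, with 1260 and 1241 genes without wild-type replicate 6 and heterozygous replicate 7. Ndn and Peg3 kept their calls in each removal, with log2 differences of 0.35 to 0.44 and 0.21 to 0.38.

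**Figure D5:**
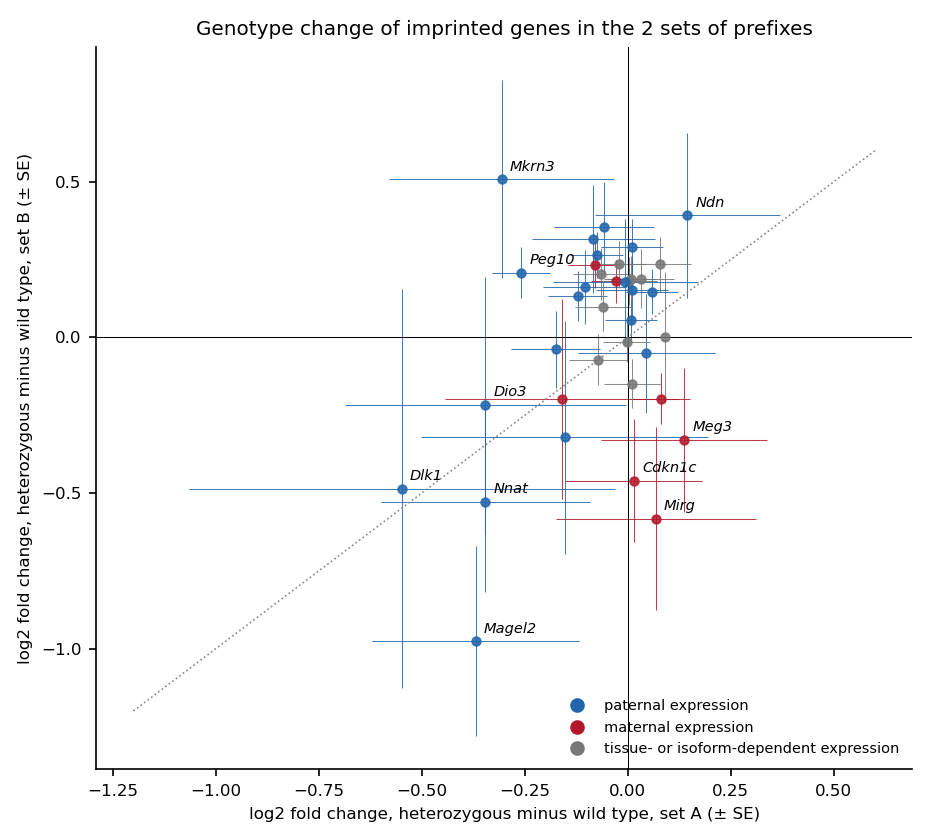
Genotype difference of each tested member in set B against that in set A, as log2 of heterozygous over wild-type from the fit of all 14 animals, with bars of 1 SE, colour by parental copy and a dotted line where both are equal. Peg10 lies below 0 in set A and above 0 in set B, and Magel2 below 0 in both.

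Other quantities differed between the genotypes of set B in the same libraries. Astrocyte markers were lower in heterozygotes for 14 of 14 genes, all called in set B alone, with a median log2 difference of -0.35 and summed levels of 14469 to 19355 CPM in wild types and 13493 to 15588 CPM in heterozygotes. Mitochondrial transcripts took a mean of 1.82% of counts in wild types and 1.37% in heterozygotes of set B, and 0.699% and 0.695% in set A. Oligodendrocyte markers had 7 called higher and 2 lower of 14, with summed levels of 5149 to 6666 CPM and 4937 to 6640 CPM, and microglia markers 4 called lower of 14, at 490.4 to 564 CPM and 437 to 482 CPM. Excitatory neuron markers had 4 called higher and 1 lower of 13, with sums of 7799 to 8180 CPM and 6724 to 7202 CPM. Of the 12 tested markers of the hypothalamus and basal forebrain, 9 were lower in heterozygotes of set B and 3 were called (25%), with a median log2 difference of -0.26 and summed levels of 257 to 331 CPM and 245 to 283 CPM. The part of any of these in the calls of the imprinted genes of set B was not tested.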

How the data were processed

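Per the labels, total RNA from mouse cortex was sequenced as single-end reads from a directional library. The authors deposited 1 table of whole-number counts per gene symbol, not normalized, with a shrunken log2 fold change, a test statistic (a score) and a p-value with its adjusted p-value from their own genotype comparison. Trim Galore, Bowtie, STAR, bedtools and mm9 stand in the submitters' processing notes, with no role or version.

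Counts were fitted with edgeR 4.0.16 (limma 3.58.1, R 4.3.3), by the robust quasi-likelihood test with TMM factors and filterByExpr by genotype. P-values were adjusted by Benjamini-Hochberg over all genes tested in a fit, with a threshold of 0.05. These were 13815 in the main fits, 13852 in set A alone and 13881 in set B alone. CPM uses TMM-scaled library sizes. Genotype was tested with sex, title prefix with genotype, set with sex and genotype, and the interaction of genotype and set with sex. The fits were also run on simulated counts. Those for genotype, set and interaction held no differences between prefixes except the changes put in. They therefore do not show how these fits behave with the prefix differences of the real libraries. DESeq2 1.42.0, RLE scaling, no filter, the prefix as a block, a set term and leaving out each animal were alternatives. Fits of 1 set alone and without prefix 048 were added after seeing the data. The labels call the wild-type mice littermates but do not name separate litters. No 2 libraries held identical values.

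Deviations of heterozygotes and wild types that share a prefix correlated at 0.2 to 0.517 in 9 pairs with genotype removed, and at -0.328 to -0.00545 with sex and set removed too. The first range passes the rule for pairing (above 0.1 in every pair), so the block is given where it changes a call, but prefix, sex and set overlap.

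The members, lists and sets were chosen with earlier results of these data known. Members named are those called in any comparison (at most 15 for prefix and set, by smallest p), the 6 of smallest genotype p and the leading member of each main cluster, with up to 4 genes of other lists by smallest p. Parental copies and clusters were assigned from general knowledge, and exon lengths and overlaps came from GENCODE M21.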

Additional observations from a re-analysis of the deposited data

Results flagged for a closer look

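In a group of 7 animals, a level was marked when its gap to the nearest other animal took more of the group's range than Dixon's critical value allows, and 7 of 76 groups of members were. Chance marks about 1 in 20 such groups. Ndn was highest in both genotypes in the animals of prefix 048, at 228 CPM in a wild-type animal (replicate 4, next 116 CPM) and at 203 CPM in a heterozygote (replicate 1, next 141 CPM). Dlk1 was at 5 CPM in that same heterozygote, with the next at 2.43 CPM. Sfmbt2, a Polycomb group gene, was lowest in the same wild-type animal, at 4.84 CPM, with the next at 5.62 CPM. The wild-type animal of prefix 119 (replicate 5) was highest for Ddc, at 6.65 CPM with the next at 4.37 CPM, and for Gnas, at 826 CPM with the next at 796 CPM. Rasgrf1 was at 463 CPM in the wild-type animal of prefix 047 (replicate 3), with the next at 290 CPM.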

How the results depend on the processing

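Of the 14 animals left out in turn, none gave a member called by genotype, and the median genotype difference of the members lay between -0.01 and 0.04 (log2). All called genes numbered 2, and 1 to 4 in these removals, 11 with DESeq2, 15 with sex and set as terms, 0 in set A alone and 2304 in set B alone. With the replicate block of the title prefix, 56 genes and 1 member (Ndn) were called, and without prefix 048 these were 58 and 1. The block changed no other member's genotype call, and 10 to 120 genes were called with it when 1 animal was left out. In set B alone 14 members were called, with a median of 0.14. In the fit of all animals 1 member was called for genotype within set B. Dnmt3a kept its direction in set A alone (log2 -0.56, edgeR adjusted p = 0.111) with 8 animals. For the interaction, 381 genes and 5 members were called with no filter on low counts, 202 genes and 2 members with DESeq2, and 0 to 850 genes and 0 to 4 members when 1 animal was left out. With set A alone 16 of 38 members, and with set B alone 3, had the opposite sign to that over all animals, none of them called over all animals. Among the leading members these were Meg3 (0.13) and Ube3a (-0.0297) in set A. Other reversals of leading members were Meg3 without wild-type replicate 6 (range over the removals -0.147 to 0.0375) and Gnas in 3 removals (range -0.0214 to 0.00305). Calls by prefix ran from 3413 to 4722 genes and 9 to 13 members when 1 animal was left out, and calls by set from 4654 to 5483 genes and 9 to 14 members. The causes were not tested. Depth limits Magel2, Dlk1, Dio3, Mkrn3, Zim1 and Slc38a4, some animals of which held fewer than 12 reads.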
